A study of Mus musculus with 9 samples.

Results

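The Toll-like receptors (TLRs) and Cd14 were followed in monocytes and macrophages sorted from the blood and brain of mice after ischemic stroke. The members were 10 listed genes, Tlr1, Tlr2, Tlr3, Tlr4, Tlr6, Tlr7, Tlr8, Tlr9, Tlr13 and Cd14, found by their Ensembl identifiers among the 53801 genes of the count tables. The mice were C57BL/6J males, 9 weeks old. Stroke was distal middle cerebral artery occlusion (dMCAO), in which the left distal middle cerebral artery and the left common carotid artery were closed for good. Cells gated as CD11c-Ly6G-CD11b+CD45high gave 3 sham blood and 3 stroke blood libraries of 1 mouse each, and 3 stroke brain libraries that each pooled the ipsilesional hemispheres of 5 mice. Mice with stroke gave their blood and brain on day 5. Whether a mouse gave both, and the day for sham blood, are not given in the sources used here. Brain tissue was taken apart with a dissociation kit in a heated device and passed through Percoll after perfusion, while blood was passed through Ficoll, so tissue and isolation cannot be told apart.

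TLRs are germline-encoded receptors by which innate immune cells recognise microbial molecules and material from damaged cells. TLR1, TLR2, TLR4 and TLR6 act at the cell surface and bind lipoproteins (TLR2 as a pair with TLR1 or TLR6) or lipopolysaccharide (TLR4 with its partner MD-2, encoded by Ly96), whereas TLR3, TLR7, TLR8, TLR9 and TLR13 sit in endosomes and sense nucleic acids. CD14 has no signaling domain of its own and hands ligands to TLR4, TLR2 and endosomal TLRs.

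Counts were scaled by the TMM method, which assumes that most genes do not change, and are given as counts per 1000000 library counts (CPM) with the mean ± SD over 3 libraries. Total counts lay between 18475118 and 22623578 per library. All 8 markers of monocytes and macrophages were above 3 counts in every library, but their summed level was 41020 to 47927 CPM in the brain against 87714 to 125380 CPM in blood, and that of 5 classical monocyte markers was 4839 to 5425 CPM against 12204 to 32958 CPM. All 9 markers of microglia, the resident macrophages of the brain, were above 3 counts in every brain library, with summed levels of 1383, 2093 and 3997 CPM in brain replicates 1, 2 and 3 against 146 to 211 CPM in blood, where Sall1 had no count. These markers were thus highest in brain replicate 3 and lowest in replicate 1. In bulk samples, fewer cells of a type and less RNA per cell cannot be told apart.

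Brain macrophages carried more Cd14, Tlr2, Tlr3 and Tlr1 RNA and less Tlr6 and Tlr7 RNA than stroke blood monocytes. In edgeR's quasi-likelihood test with Benjamini-Hochberg adjustment over 13189 genes, 4 of the 10 members were higher and 2 were lower at an adjusted p below 0.05, where 17.5% and 13.1% of all genes were. A differentially expressed gene (DEG) also had to change by more than 2-fold, as Cd14, Tlr3 and Tlr2 did. These 3 upregulated members compare with 13.1% of all genes, and 0 members were downregulated DEGs, against 7.86% of all genes. For 8 members the ranges of the brain and stroke blood groups were apart, as they were for 47.9% of all genes. The members moved in both directions, and their median log2 fold change of 0.04 was next to the 0.06 of all genes tested.

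**Figure D1:**
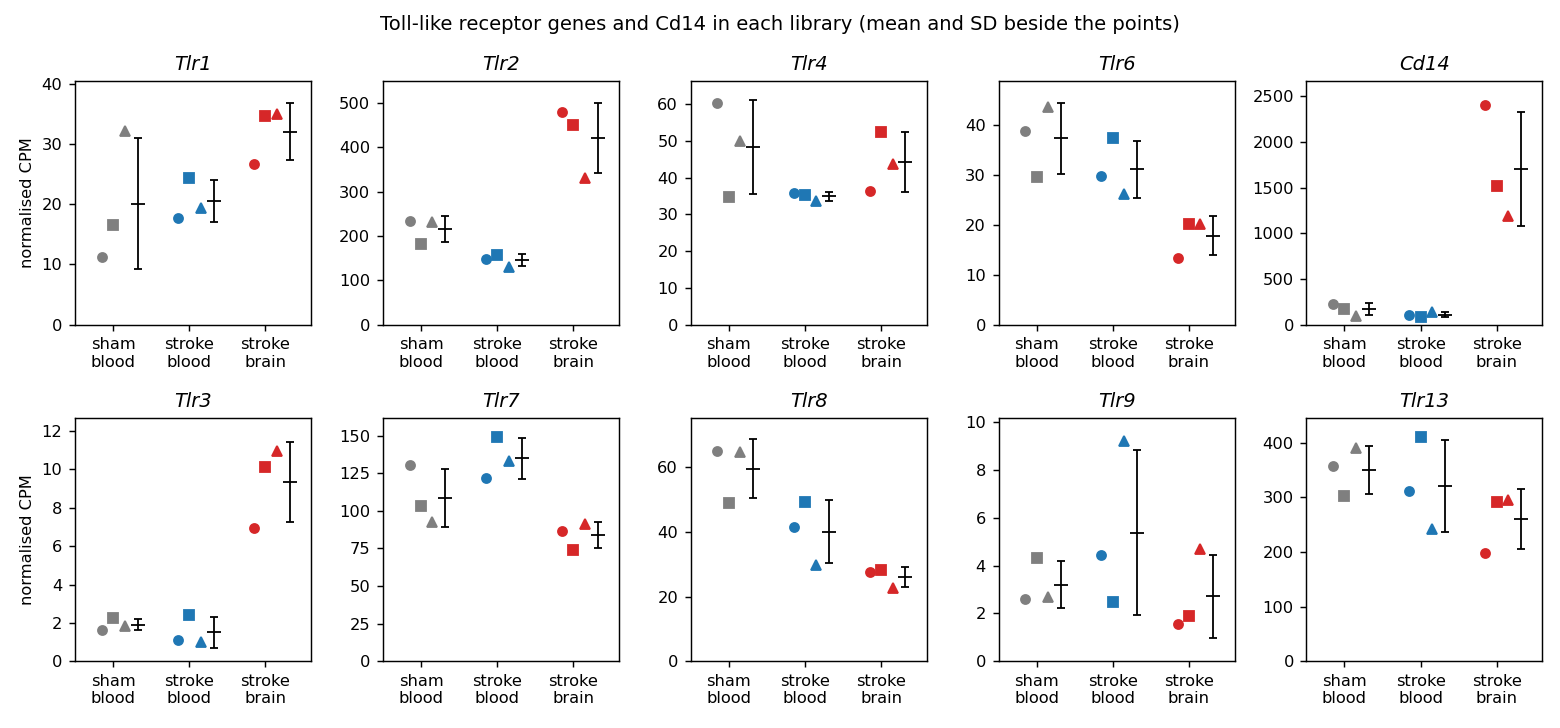
Level of each gene in normalised CPM (vertical axes, each from 0) in the 3 sham blood, 3 stroke blood and 3 stroke brain libraries; circles, squares and triangles are replicates 1, 2 and 3, and the black bars are mean and SD. The brain libraries lie above all blood libraries for Cd14, Tlr2 and Tlr3 and below all of them for Tlr6, Tlr7 and Tlr8.

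Tlr2, the shared partner in the lipoprotein receptors, lies on chromosome 3 of GRCm38 from 83836272 to 83841767 on the minus strand. Its level was 233.7, 182.5 and 232.4 CPM in sham blood, 148.03, 157 and 131 CPM in stroke blood, and 479.8, 450.6 and 330 CPM in the brain. Every brain library was above every blood library, and every stroke blood library was below every sham blood library. Between stroke blood (145 ± 13.6 CPM, n = 3) and brain (420 ± 79.1 CPM, n = 3) Tlr2 rose by 1.56 on the log2 scale (standard error 0.18, edgeR adjusted p = 0.00037). Without brain replicate 1, which had the highest Tlr2 level and the lowest summed level of microglial markers of the brain libraries, the difference was 1.45.

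Promoters were taken from RefSeq on GRCm38.p6 and matched 7 of the 10 members, while Cd14, Tlr4 and Tlr7 were not matched in the table used here. The 250 bases before the start are shown for Tlr2 and Tlr3, the TLR genes among the upregulated DEGs, and for Tlr6, which was downregulated. The stretches are chr3:83841609-83841858, chr8:45410381-45410630 and chr5:64959167-64959416, each on the minus strand and written 5′ to 3′ with motif matches in capitals.
Tlr2: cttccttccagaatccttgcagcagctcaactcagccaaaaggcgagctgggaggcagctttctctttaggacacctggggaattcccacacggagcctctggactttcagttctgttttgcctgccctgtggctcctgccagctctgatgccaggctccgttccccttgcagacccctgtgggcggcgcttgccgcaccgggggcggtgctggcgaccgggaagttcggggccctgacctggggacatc
Tlr3: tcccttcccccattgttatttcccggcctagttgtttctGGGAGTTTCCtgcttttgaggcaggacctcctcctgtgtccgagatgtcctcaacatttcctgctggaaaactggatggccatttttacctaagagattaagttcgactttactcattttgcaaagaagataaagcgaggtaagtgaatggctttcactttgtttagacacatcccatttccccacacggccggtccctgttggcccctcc
Tlr6: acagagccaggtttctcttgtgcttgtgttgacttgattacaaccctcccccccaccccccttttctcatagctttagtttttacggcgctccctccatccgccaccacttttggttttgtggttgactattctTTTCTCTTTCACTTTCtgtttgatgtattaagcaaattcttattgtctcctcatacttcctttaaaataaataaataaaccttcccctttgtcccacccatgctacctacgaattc

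Both strands of these windows were searched for 4 motifs: an NF-kB motif (GGG and TTTCC with any 2 bases between them), an interferon response motif (GAAA, any 2 bases and GAAA again), an AP-1 motif (TGANTCA) and a PU box (GAGGAA). The Tlr3 window held the NF-kB motif from -211 to -202, a motif found in 1.41% of all 32851 promoters. The Tlr6 window held the interferon response motif in a pair of overlapping matches, the first from -116 to -107, on the strand opposite to the gene, and 2.98% of all promoters held it. RefSeq lists a second Tlr6 start, whose window held none of the 4 motifs. The Tlr2 window held none of the 4 motifs in these letters. The NF-kB motif was searched only in the form given, and looser forms were not searched. The absence of a match therefore does not show that the Tlr2 window lacks an NF-kB site. The PU box was in promoters of Tlr1, Tlr8, Tlr9 and Tlr13, and in 23.3% of all promoters, and the AP-1 motif was in that of Tlr9 and in 6.75% of all promoters. These matches describe the letters alone.

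Tlr1 and Tlr6 encode the partners with which TLR2 binds triacylated and diacylated lipoproteins. The genes are neighbours on the minus strand of chromosome 5, Tlr1 from 64924679 to 64933563 and Tlr6 from 64952031 to 64960097. They are close copies, and 340 of the 75-base stretches of their transcripts, the length of a read, are identical, which is 10.3% of those of Tlr1 and 9.25% of those of Tlr6. No other pair of members shares such a stretch. The longest run of identical bases is 229 bases long and lies within the coding sequence, at chr5:64925537-64925765 in Tlr1 and chr5:64953828-64954056 in Tlr6. It is shown from the GENCODE transcript of Tlr1, in capitals between 20 flanking bases on either side, because a read from it could belong to either gene, so both counts are uncertain.
Tlr1: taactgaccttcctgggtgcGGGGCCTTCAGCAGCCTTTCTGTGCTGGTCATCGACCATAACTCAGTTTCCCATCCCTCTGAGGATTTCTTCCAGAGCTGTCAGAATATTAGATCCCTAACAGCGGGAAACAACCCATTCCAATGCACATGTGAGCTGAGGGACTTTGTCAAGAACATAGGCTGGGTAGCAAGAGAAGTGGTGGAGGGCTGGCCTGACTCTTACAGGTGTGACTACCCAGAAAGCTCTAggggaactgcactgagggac

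Tlr1 stood at 11.3, 16.6 and 32.2 CPM in sham blood, 17.7, 24.3 and 19.4 CPM in stroke blood, and 26.6, 34.6 and 34.9 CPM in the brain. The brain libraries were above the stroke blood libraries but not above sham blood replicate 3. The rise from 20.5 ± 3.47 to 32.1 ± 4.70 CPM (n = 3 each) was 0.67 on the log2 scale (standard error 0.21, edgeR adjusted p = 0.0382), below the 2-fold threshold. With libraries left out in turn, its adjusted p stayed below 0.05 in 2 of 6 fits, those without stroke blood replicate 2 and without brain replicate 1.

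Tlr6 showed the opposite course, with 38.8, 29.6 and 43.7 CPM in sham blood, 29.7, 37.4 and 26.1 CPM in stroke blood, and 13.3, 20.1 and 20.2 CPM in the brain. All brain libraries were below all blood libraries. Relative to stroke blood (31.1 ± 5.75 CPM, n = 3) the brain level of 17.9 ± 3.92 CPM (n = 3) fell by 0.78 on the log2 scale (standard error 0.24, edgeR adjusted p = 0.0335). Only the fit without stroke blood replicate 3 kept the adjusted p below 0.05, and in the other 5 it lay between 0.0628 and 0.0801. The summed levels of the monocyte and macrophage markers were also lower in the brain than in blood, as given above, and their part in the falls of Tlr6, Tlr7 and Tlr8 was not tested.

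Tlr4, the lipopolysaccharide receptor (chromosome 4, 66827584 to 66930284, plus strand), had 60.2, 34.7 and 50.03 CPM in sham blood, 35.9, 35.2 and 33.5 CPM in stroke blood, and 36.2, 52.5 and 43.7 CPM in the brain. The brain libraries lay just above the stroke blood libraries and within the range of sham blood. The log2 difference between brain and stroke blood was 0.36 (standard error 0.19, edgeR adjusted p = 0.168), which did not pass the test.

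Cd14 (chromosome 18, 36725074 to 36726736, minus strand) had the largest change of the members between brain and stroke blood. Sham blood libraries had 229, 176 and 99.95 CPM of Cd14, stroke blood libraries 109, 87.7 and 137 CPM, and brain libraries 2398, 1520 and 1189 CPM. The blood groups overlapped each other, while the lowest brain library was far above the highest blood library. On the log2 scale Cd14 rose by 3.97 over stroke blood (standard error 0.30, edgeR adjusted p = 3.83e-05), and by 3.63 without brain replicate 1. Among the brain libraries Cd14 ran in the order opposite to the microglial markers, highest in replicate 1 and lowest in replicate 3. The part of microglial RNA in the level of Cd14 was not tested.

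**Figure D2:**
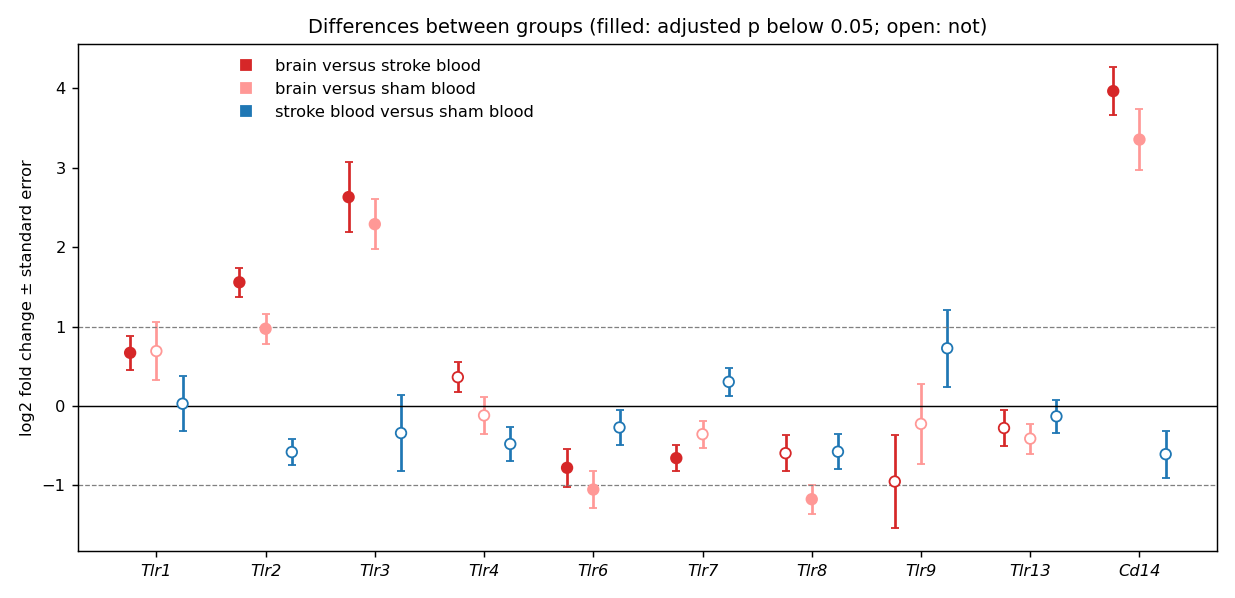
Log2 fold change with its standard error (vertical axis) for the 10 members in the 3 comparisons; filled points passed an adjusted p of 0.05 in edgeR's quasi-likelihood test, and dashed lines mark a 2-fold change. Cd14, Tlr3 and Tlr2 are higher in the brain against either blood group, and all 10 points for stroke against sham blood are open.

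The co-receptor changed against its receptor, as ratios of levels per kilobase of exon (RPKM) within a library show. The Cd14 to Tlr4 ratio was 12.2, 16.3 and 6.41 in sham blood, 9.74, 8.0 and 13.1 in stroke blood, and 212.3, 92.8 and 87.4 in the brain. The 3 brain ratios were above all blood ratios, and replicate 1 stood highest. Ly96, whose product MD-2 holds the lipid for TLR4, went the other way from Cd14 and fell by 0.93 on the log2 scale, with 58.0 ± 17.3 CPM in stroke blood and 29.8 ± 1.42 CPM in the brain (n = 3 each, standard error 0.22, edgeR adjusted p = 0.0122). The Ly96 to Tlr4 ratio was 4.87, 7.33 and 4.94 in sham blood, 7.64, 7.07 and 12.6 in stroke blood, and 4.30, 3.25 and 3.67 in the brain, below all blood libraries. With 3 libraries against 3 the exact two-sided permutation test of a ratio cannot give a p below 0.1.

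The partners of TLR2 changed places. The Tlr1 to Tlr6 ratio was 0.325, 0.623 and 0.821 in sham blood and 0.662, 0.725 and 0.825 in stroke blood, but 2.22, 1.92 and 1.93 in the brain. Tlr6 was thus the higher of the pair in all 6 blood libraries and Tlr1 in all 3 brain libraries, within the uncertainty of their shared sequence.

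**Figure D3:**
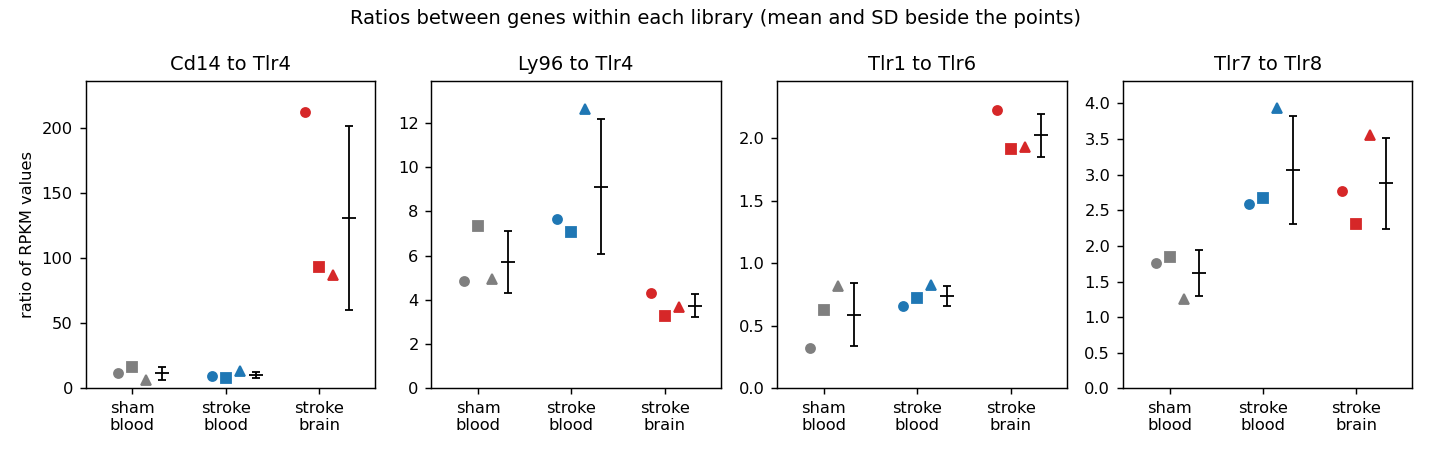
Ratio of RPKM values (vertical axes, from 0) within each of the 9 libraries for 4 pairs of genes, with circles, squares and triangles for replicates 1, 2 and 3 and black bars for mean and SD. The brain ratios of Cd14 to Tlr4 (87.4 to 212.3) and of Tlr1 to Tlr6 (1.92 to 2.22) lie above all blood libraries, and those of Ly96 to Tlr4 (3.25 to 4.30) lie below them.

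Among the endosomal TLRs, Tlr3, a sensor of double-stranded RNA (chromosome 8, 45395665 to 45411080, minus strand), was the only one that rose in the brain. It was scarce in blood, with 33, 48 and 33 counts in sham blood and 22, 51 and 17 counts in stroke blood, against 144, 243 and 251 counts in the brain. As CPM these were 1.66, 2.26 and 1.84 in sham blood, 1.11, 2.44 and 0.995 in stroke blood, and 6.96, 10.1 and 10.9 in the brain, with no overlap between brain and blood. Tlr3 rose by 2.63 on the log2 scale over stroke blood (standard error 0.44, edgeR adjusted p = 0.00217). Of the bases in its exons, 7.32% overlap Gm45542 on the other strand, which had no count in any library.

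Tlr3 had its lowest brain level in replicate 1 and its highest in replicate 3, the order of the microglial markers and the reverse of Cd14. Summed markers of conventional dendritic cells, some of which also express Tlr3, were at 631, 547 and 528 CPM in the brain against 91.7 to 218 CPM in stroke blood and 74.9 to 337 CPM in sham blood. Most of each brain sum was Cd209a, at 439 ± 31.4 CPM (n = 3). Without Cd209a the other 5 markers summed to 108 to 156 CPM in the brain, 39.9 to 74.9 CPM in stroke blood and 43.1 to 71.3 CPM in sham blood. Xcr1 and Clec9a mark the subset known for Tlr3. In the brain Xcr1 was at 6.62, 1.58 and 2.26 CPM and Clec9a at 2.13, 0.666 and 1.48 CPM. Xcr1 overlapped stroke blood and, like Itgae, did not pass the test. Clec9a, Flt3, Zbtb46 and Cd209a were upregulated DEGs over stroke blood. Of these, Clec9a and Zbtb46 passed the filter on low counts only through the brain libraries. The sort kept CD11c-negative cells, and conventional dendritic cells carry CD11c. The part of either cell type in the level of Tlr3 was not tested.

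Tlr7 and Tlr8, which recognise single-stranded RNA and its breakdown products, are neighbours on the minus strand of the X chromosome, from 167304929 to 167330558 and from 167242696 to 167264329. Tlr7 stood at 130.2, 103 and 92.4 CPM in sham blood, 122, 149 and 133 CPM in stroke blood, and 86.7, 74.2 and 91.3 CPM in the brain. All brain libraries were below all blood libraries, though sham blood replicate 3 was close to the highest brain library. Tlr7 fell by 0.66 on the log2 scale from stroke blood to brain (standard error 0.16, edgeR adjusted p = 0.0135), and it passed in 5 of 6 fits with libraries left out in turn, the exception being the fit without brain replicate 2 (edgeR adjusted p = 0.0715).

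Tlr8 stood at 65.02, 48.9 and 64.6 CPM in sham blood, 41.4, 49.1 and 29.8 CPM in stroke blood, and 27.5, 28.3 and 22.5 CPM in the brain. The brain libraries were the 3 lowest, and stroke blood replicate 3 was close to them. Relative to stroke blood the log2 difference was -0.59 (standard error 0.23, edgeR adjusted p = 0.0759) and did not pass the test, but without stroke blood replicate 3 it was -0.80 (edgeR adjusted p = 0.0295). The Tlr7 to Tlr8 ratio per length was 1.76, 1.85 and 1.26 in sham blood, 2.59, 2.67 and 3.94 in stroke blood, and 2.77, 2.30 and 3.56 in the brain, so that sham blood was below the other two groups, which overlapped each other.

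Tlr13, a sensor of bacterial ribosomal RNA (X chromosome, 106143204 to 106160493, plus strand), was abundant in every library. It had 358, 303 and 390 CPM in sham blood, 312, 409.9 and 243 CPM in stroke blood, and 198, 291 and 295 CPM in the brain. Brain and stroke blood overlapped, and the log2 difference of -0.28 (standard error 0.23, edgeR adjusted p = 0.385) did not pass the test.

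Tlr9, a sensor of unmethylated CpG DNA (chromosome 9, 106222598 to 106226883, plus strand), was scarce, with 52, 92 and 48 counts in sham blood, 88, 52 and 157 counts in stroke blood, and 32, 46 and 108 counts in the brain. The groups overlapped, and the difference between brain and stroke blood was -0.95 on the log2 scale with a standard error of 0.58 (edgeR adjusted p = 0.246), so a change was not detectable. Markers of B cells and plasmacytoid dendritic cells, which express Tlr9, were detected too. Summed B cell markers were at 44.9 to 87.9 CPM in the brain and 66.7 to 115 CPM in stroke blood, and summed plasmacytoid dendritic cell markers at 75.4 to 184 CPM and 8.08 to 19.0 CPM. Siglech, which microglia express too, gave 60.7, 61.1 and 157 CPM of these brain sums and had no count in stroke blood. Without Siglech the other 5 markers summed to 14.2 to 27.1 CPM in the brain and 8.08 to 19.0 CPM in stroke blood, with overlap. Most of each of these sums was Ly6d, at 16.6, 8.20 and 18.9 CPM in the brain and 18.0, 7.17 and 13.5 CPM in stroke blood. Ccr9, Klk1, Pacsin1 and Cox6a2 were low but higher in every brain library than in any stroke blood library, with brain means of 1.58, 0.836, 2.22 and 2.63 CPM. Of these, Pacsin1 and Cox6a2 were DEGs that passed the filter on low counts only through the brain libraries. The part of B cells and plasmacytoid dendritic cells in Tlr9 was not tested.

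In blood monocytes no change of a member after stroke passed the test. Between stroke and sham blood 0 of the 10 members passed an adjusted p of 0.05 in edgeR or in DESeq2, where edgeR called 0.0079% of 12664 genes, a single gene named Serpinb10, and DESeq2 called 205. In edgeR's quasi-likelihood test without adjustment, 2 of the 10 members had a p below 0.05, as 12.5% of all genes did: Tlr2 with a log2 difference of -0.58 (standard error 0.16, edgeR adjusted p = 0.287) and Tlr8 with -0.57. Tlr2 was the only member whose stroke and sham blood libraries did not overlap, against 18.4% of all genes. The Cd14 difference of -0.61 had an edgeR adjusted p of 0.436, and sham blood replicate 3 lay within the stroke blood range. The mean level of Tlr7 was 109 ± 19.5 CPM in sham blood and 135 ± 13.5 CPM in stroke blood (n = 3 each), with overlapping libraries. Platelet and erythroid markers were uneven within sham blood, at 16.3 and 1261 summed CPM in replicate 1 and from 407 and 31280 CPM upward in the others.

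Against sham blood, 3 members were higher in the brain and 2 were lower at an adjusted p below 0.05 in edgeR's test, where 12.1% and 7.68% of 13020 genes were. Its libraries are shared with the other two comparisons. Cd14 rose by 3.36 (standard error 0.38, edgeR adjusted p = 0.00171) and Tlr3 by 2.29 (standard error 0.31, edgeR adjusted p = 0.00362) on the log2 scale, the 2 upregulated DEGs, at a background of 9.75%. Tlr2 rose by 0.97 (standard error 0.19, edgeR adjusted p = 0.0116), just under the 2-fold threshold. Tlr8 fell by 1.17 (standard error 0.18, edgeR adjusted p = 0.00556) and Tlr6 by 1.05 (standard error 0.23, edgeR adjusted p = 0.0189), the 2 downregulated DEGs, at a background of 3.67%. Libraries of brain and sham blood did not overlap for 7 members, Tlr7 and Tlr13 included, against 41.3% of all genes. Tlr1, with a log2 difference of 0.69 (edgeR adjusted p = 0.219), did not pass, while without sham blood replicate 3 its difference was 1.21 (edgeR adjusted p = 0.0331). Without the same library Tlr6 had an edgeR adjusted p of 0.064.

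Levels of different genes were compared as RPKM over the union of each gene's exons. In stroke blood the order ran from Tlr13 (74.7), Cd14 (64.3) and Tlr2 (48.2) through Tlr7 (33.0), Tlr8 (11.2), Tlr6 (8.34), Tlr4 (6.28) and Tlr1 (6.11) to Tlr9 (1.54) and Tlr3 (0.291 RPKM). Libraries of Tlr13 and Cd14, of Cd14 and Tlr2, of Tlr8 and Tlr6, and of Tlr4 and Tlr1 overlapped there, so the order within these pairs was not separated by the libraries. In sham blood Cd14 (97.2), Tlr13 (81.4) and Tlr2 (71.7 RPKM) came first and overlapped each other in turn, as did Tlr6 (10.0), Tlr4 (8.70) and Tlr1 (5.99 RPKM) further down. In the brain Cd14 reached 983 RPKM, followed by Tlr2 (139), Tlr13 (60.7) and Tlr7 (20.6 RPKM), without overlap between neighbours. Further down in the brain, Tlr1 (9.58), Tlr4 (7.94) and Tlr8 (7.29) overlapped their neighbours, as did Tlr3 (1.79) and Tlr9 (0.782 RPKM). The place of Tlr4 depends on the length used. By its longest transcript it passed Tlr6 in stroke blood (8.55 against 8.46 RPKM) and sham blood (11.9 against 10.2 RPKM) and Tlr1 in the brain (10.8 against 10.6 RPKM), and the libraries of each of these pairs overlapped.

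The 9 TLR genes summed to 222 ± 27.5 RPKM in sham blood, 190 ± 30.4 in stroke blood and 253 ± 18.4 in the brain (n = 3 each). Tlr2 made up 32.2 ± 0.515% of this sum in sham blood, 25.6 ± 1.85% in stroke blood and 54.9 ± 7.93% in the brain. Tlr13 held 36.6%, 38.95% and 24.1% in the same order, and Tlr7 held 12.1%, 17.6% and 8.21%. Tlr2 and Tlr13 were the leading TLR transcripts per length in each group, with Tlr13 first by the mean in blood and Tlr2 first in the brain. Such shares move together, since a higher share of Tlr2 lowers all others.

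**Figure D4:**
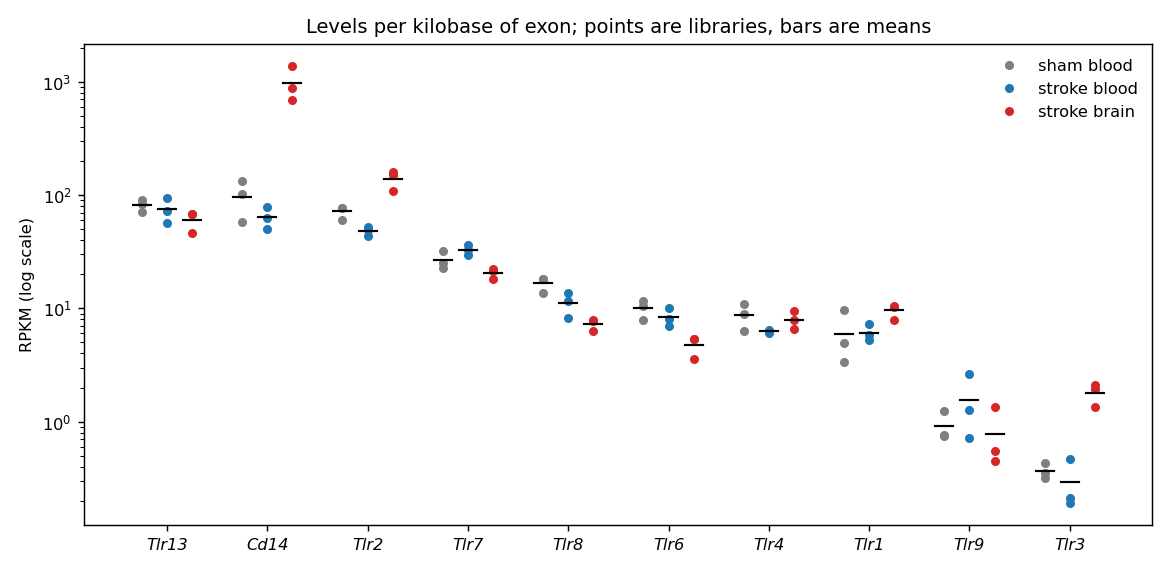
Level per kilobase of exon in RPKM (vertical log axis) of the 10 members, ordered by their mean in stroke blood; points are the 9 libraries and black bars the group means. Cd14 rises from 64.3 RPKM in stroke blood to 983 RPKM in the brain, and Tlr3 and Tlr9 are the lowest members in each group.

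The genes with profiles most like those of the members were taken as the smallest root mean square difference of log2 CPM, each centred on its own mean, over the 9 libraries among 7921 genes. For Cd14 these were Jdp2 (0.28), Rasgef1b (0.30) and Gadd45g (0.33). For Tlr2 they were Rcan1 (0.17), Tacc3 (0.17) and Zbtb25 (0.18), and for Tlr3 they included Havcr2 (0.30) and Myc (0.33). Tlr6 was most like Cmtr2 (0.14), G6pdx (0.16) and Slc35a5 (0.17), and Tlr8 most like Amd1 (0.15), Tmpo (0.18) and Kctd20 (0.19). The profiles themselves had root mean squares of 1.77 for Cd14, 1.21 for Tlr3, 0.65 for Tlr2, 0.53 for Tlr8 and 0.52 for Tlr6.

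The 3 further mouse TLR genes were low. Tlr5, the flagellin receptor, had 4.79 ± 0.263 CPM in stroke blood and 11.5 ± 1.74 CPM in the brain (n = 3 each) and rose by 1.29 on the log2 scale (standard error 0.27, edgeR adjusted p = 0.00717). Its log2 difference of 0.67 from sham blood (7.27 ± 1.37 CPM) did not pass the test (edgeR adjusted p = 0.103). Tlr12 rose from 6, 20 and 5 counts to 66, 55 and 86 counts, by 2.57 on the log2 scale (standard error 0.61, edgeR adjusted p = 0.0119). It passed the filter on low counts only through the brain libraries, so its test had to favour a rise. Without stroke blood replicate 1 the edgeR adjusted p of Tlr12 was 0.0542. Tlr11 had a log2 difference of -0.86 and did not pass the test (edgeR adjusted p = 0.284).

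Of 6 co-receptors and accessory proteins, which include Cd14 and Ly96, 2 rose and 2 fell in the brain relative to stroke blood. Of all genes, 17.5% rose and 13.1% fell. Cd36, a scavenger receptor that assists TLR2 and TLR6, rose by 1.83 on the log2 scale (edgeR adjusted p = 0.00163). Ly86, whose product MD-1 pairs with the TLR relative CD180, fell by 0.93 on the log2 scale (edgeR adjusted p = 0.008), while Cd180 itself, at -0.67, did not pass the test (edgeR adjusted p = 0.0752), and its exons overlap Mast4 on the other strand. Cd14, Cd36 and Ly96 also passed against sham blood in the same directions. Ly86 did not (log2 difference -0.37, edgeR adjusted p = 0.291). The list's median of -0.70 was below 0 although Cd14 had the highest fold change in it.

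Of 9 genes for the trafficking and processing of endosomal TLRs, 3 rose and 1 fell, where 17.5% and 13.1% of all genes did. Unc93b1, which carries these receptors to endosomes, was at 1401 ± 120 CPM in stroke blood and 1539 ± 91.4 CPM in the brain (log2 difference 0.16, edgeR adjusted p = 0.43). Lgmn, a lysosomal protease that cleaves endosomal TLRs, rose by 2.19 on the log2 scale (edgeR adjusted p = 2.6e-05), and Pld3, an endolysosomal nuclease that degrades TLR ligands, by 2.09 (edgeR adjusted p = 3e-05). Hsp90b1, a chaperone of TLRs, rose by 0.44 (edgeR adjusted p = 0.0416) with exons that overlap other genes. Pld4, the sister nuclease of Pld3, fell by 0.52 on the log2 scale (edgeR adjusted p = 0.032). Lgmn, Pld3 and Pld4 also passed against sham blood in the same directions. Hsp90b1 did not (log2 difference -0.10, edgeR adjusted p = 0.397), and every brain library was below every sham blood library. With 1 library left out in turn, Hsp90b1 passed in 1 of 6 fits (not without stroke blood replicates 1 or 3 or any brain library) and Pld4 in 2 of 6 (not without stroke blood replicate 3 or any brain library).

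Of the signaling genes, the adaptors had a median log2 difference of -0.29, the kinases and ubiquitin ligases one of 0.29 and the negative regulators one of 0.18. Over all genes tested the median was 0.06, and 17.5% rose and 13.1% fell relative to stroke blood. Of 5 adaptors tested, 1 rose, Pik3ap1, which links TLRs to PI3K, by 1.23 on the log2 scale (edgeR adjusted p = 0.00266), and Myd88, the adaptor of most TLRs, had a log2 difference of -0.29 (edgeR adjusted p = 0.176) with exons that overlap Acaa1a on the other strand. Among 17 kinases and ubiquitin ligases, 4 rose and 1 fell relative to stroke blood. On the log2 scale Map3k7 (1.67), Irak2 (1.23), Tbk1 (0.77) and Chuk (0.72) rose and Tab2 (-1.07) fell. Against sham blood Map3k7 was not called (edgeR adjusted p = 0.384). It was at 5.57, 47.6 and 21.2 CPM there, with replicate 2 within the brain range of 38.3 to 51.1 CPM. Against stroke blood, Map3k7 and Irak2 passed in each of 6 fits with a library left out. Tbk1 passed in 3 of them (not without stroke blood replicates 1 or 3 or brain replicate 2), Tab2 in 2 (not without stroke blood replicates 1 or 3 or brain replicates 2 or 3) and Chuk in 1 (not without stroke blood replicates 1 or 3 or any brain library). Of 8 negative regulators, 1 rose, Tnfaip3, which encodes the deubiquitinase A20. Tnfaip3 was at 23.6 ± 3.28 CPM in stroke blood and 237 ± 83.0 CPM in the brain, it rose by 3.35 on the log2 scale (standard error 0.27, edgeR adjusted p = 4.85e-05), and like Cd14 it was highest in brain replicate 1 (333 CPM).

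Genes that TLR signaling is known to induce were higher in the brain, with 10 of 12 tested upregulated, all of them DEGs, where 13.1% of all genes were. Il1a, Il6 and Acod1 passed the filter on low counts only through the brain libraries, which favours a rise in their tests. Of the other 9 genes 7 rose. The median log2 fold change was 2.98 over the 12, also with Il1a at its lower bound, and 2.80 over the 9, beside 0.06 for all genes. Il1b rose by 3.93 on the log2 scale, with 97.7 ± 38.6 CPM in stroke blood and 1458 ± 171 CPM in the brain (edgeR adjusted p = 3.83e-05), and Ptgs2, which encodes cyclooxygenase-2, by 6.96, with 0.734 ± 0.137 CPM and 89.7 ± 15.7 CPM (edgeR adjusted p = 9.55e-07). Il1a had 0, 0 and 1 counts in stroke blood and 1748, 815 and 967 counts in the brain, at least 341-fold higher when set against 3 counts per blood library. Acod1 (5.10), Ccl4 (3.55), Ccl3 (3.12), Il6 (2.85), Cxcl2 (2.80), Nfkbiz (2.06) and Cxcl10 (1.45) made up the rest on the log2 scale. Without stroke blood replicate 3 the edgeR adjusted p of Il6 was 0.0748. Exons of Il1b, Il1a and Cxcl10 overlap genes on the other strand. Tnf, with a log2 difference of 1.03 (edgeR adjusted p = 0.0834), and Saa3, with -1.25 (edgeR adjusted p = 0.202), did not pass the test. Il12b and Ifnb1, like the adaptor gene Sarm1, had too few counts to be tested, though Il12b had 149, 10 and 61 counts in the brain against 1, 0 and 0 in stroke blood. Many other pathways induce these genes as well, and the part of any TLR in their levels was not tested.

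Of 4 tested genes for proposed endogenous TLR ligands, S100a8 (log2 fold change 2.26, edgeR adjusted p = 0.012) and S100a9 (3.54, edgeR adjusted p = 0.0123) rose, and Vcan (-1.05, edgeR adjusted p = 0.0112) fell. At an adjusted p below 0.05, 17.5% of all genes rose and 13.1% fell. Without stroke blood replicate 1 the edgeR adjusted p of S100a8 was 0.0552, and without brain replicate 3 that of Vcan was 0.0502. Both S100 genes are abundant in neutrophils, whose 9 markers summed to 765 to 1107 CPM in the brain, 428 to 783 CPM in stroke blood and 696 to 1812 CPM in sham blood. These markers went in both directions between stroke blood and brain. Mmp8, the largest part of each stroke blood sum, was the only marker called lower and fell from 447 ± 32.6 to 126.6 ± 17.4 CPM. Camp, at 2.09 ± 3.26 and 51.3 ± 22.6 CPM, and Ngp, at 7.28 ± 11.99 and 219.8 ± 78.6 CPM (n = 3 each), were upregulated DEGs. So were Ltf, Mpo and Elane, and all but Elane passed the filter on low counts only through the brain libraries. Retnlg did not pass the test. Without Mmp8 and Retnlg the other 7 markers summed to 308 to 580 CPM in the brain, 4.54 to 35.9 CPM in stroke blood and 16.9 to 70.8 CPM in sham blood. The sort kept Ly6G-negative cells, whereas neutrophils carry Ly6G, and Ly6g itself had 0 to 14 counts in each stroke library. The part of these cells was not tested. Against sham blood neither S100 gene was called higher. S100a8 was at 42.5, 77.8 and 984 CPM in sham blood and at 231, 56.6 and 146 CPM in the brain. Its sham mean of 368 CPM, against 144 CPM in the brain, thus rested on sham replicate 3. S100a9 was at 34.8, 26.1 and 265 CPM in sham blood and at 188, 66.8 and 160 CPM in the brain. Between stroke and sham blood 0 of the 60 list genes tested beside the members passed edgeR's adjusted p of 0.05, while 11 had an unadjusted p under 0.05, beside 12.5% of all genes. DESeq2 called 1 of them, Tab2, which was higher in stroke blood (log2 fold change 0.96, adjusted p = 0.02).

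**Figure D5:**
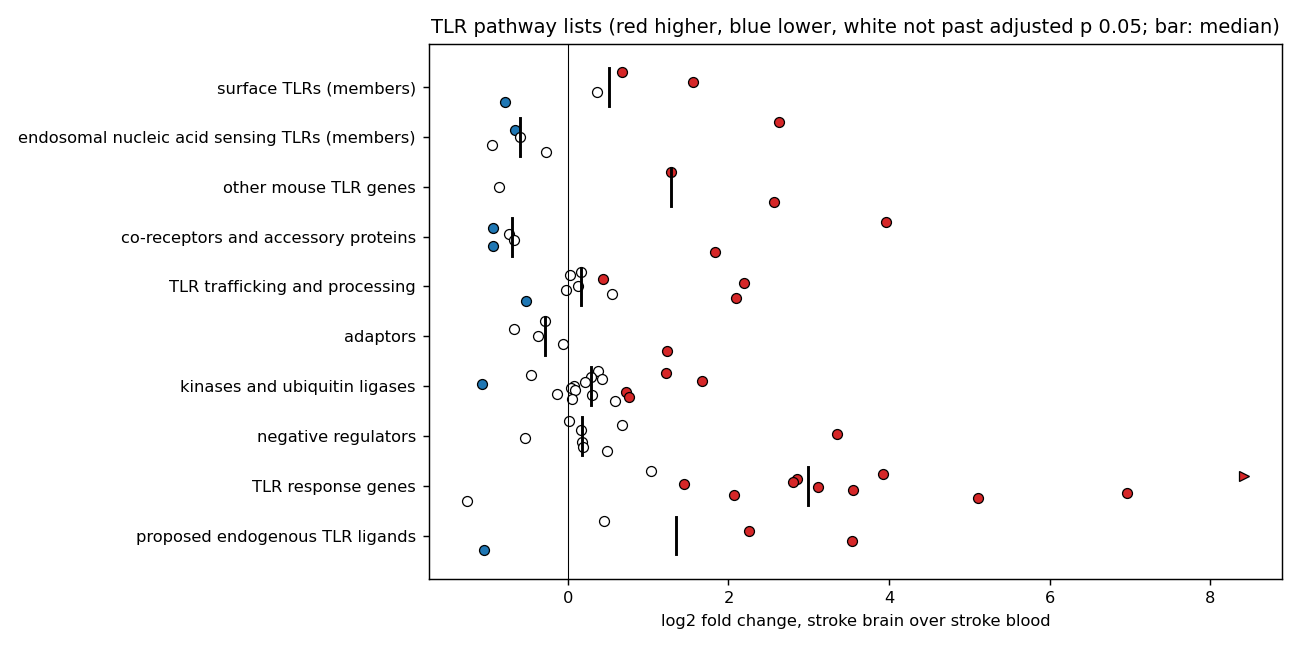
Log2 fold change between stroke brain and stroke blood (horizontal axis) of each tested gene in 10 lists; red points are higher and blue points lower at an adjusted p below 0.05, white points did not pass, bars are list medians, and the triangle is the lower bound of Il1a. The response genes have the highest median, 2.98, while the medians of the adaptors (-0.29) and endosomal TLRs (-0.59) are below 0.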

How the data were processed

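The authors checked reads (paired-end, SMART-Seq HT cDNA and Nextera XT libraries) with FastQC, used HISAT2 for alignment to GRCm38 and HTSeq for counting on Ensembl genes. The deposited tables hold raw counts that were not normalized. Versions, annotation release and strand setting are not given in the sources used here, so genes with overlapping exons are uncertain. The study called DEGs with DESeq2.

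Symbols, exons and lengths came from GENCODE M21, in which 53706 identifiers were found and 52105 had identical coordinates (Cd14 did not). Samples were grouped by their labels. Each comparison was fitted over all genes of its 6 libraries with edgeR 4.0.16 in R 4.3.3 (TMM, default filter on low counts, quasi-likelihood test, Benjamini-Hochberg adjustment); the standard error is the log2 fold change over the square root of F. The scripts were tested on simulated data. CPM and RPKM were scaled over all 9 libraries. A floor of 3 counts covers counting error only, as the libraries hold no molecular identifiers. Figures used Python 3.11.15 and matplotlib 3.10.9.

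The members, pathway lists and marker lists were chosen with earlier results of these data known. All members are given; list genes were named where they were DEGs or where their role was needed, and the 3 most like genes only for members that were DEGs. Results for some genes that these rules name are not reported here. Alternatives were DESeq2 1.42.0, other filters, other normalizations, all 9 libraries in one fit, a block for the replicate number, a stricter adjusted p of 0.01, each library left out, and other lengths. Counts of other list genes called with a library left out, lower bounds, the list genes that passed the filter through the brain libraries only, marker sums in parts, the order of levels by longest transcript and the longest shared stretch of Tlr1 and Tlr6 were added after values were seen.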

Additional observations from a re-analysis of the deposited data

How the results depend on the processing

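Against stroke blood, the members lower at an adjusted p below 0.05 numbered 2, but 1 with library size only, 0 at an adjusted p below 0.01, and 0 to 3 with each library left out (0 without brain replicate 2, and 3, with Tlr8, without stroke blood replicate 3). Against sham blood the members lower numbered 2, but 1 at an adjusted p below 0.01 and 1 to 2 with each library left out; upregulated DEGs numbered 2 to 4 with each library left out (4 without sham blood replicate 3), and downregulated DEGs numbered 1 with library size only, 1 at an adjusted p below 0.01 and 1 to 2 with each library left out. All other counts of members moved by at most 1.5 times, and Cd14 and Tlr3 passed against both blood groups under each alternative. Members that were not called changed sign as follows: Tlr1 in stroke versus sham blood (-0.0084 with library size only, -0.26 to 0.54 with each library left out), Tlr13 in the same comparison (-0.37 to 0.031), and in brain versus sham blood Tlr4 (0.0076 with library size only, -0.32 to 0.072 with each library left out) and Tlr9 (-0.87 to 0.0498). The cause of these changes was not tested. The rise of Tlr1 over stroke blood also missed the adjusted p with no filter (0.0586), upper quartile normalization (0.0803) and all 9 libraries in one fit (0.161), whereas Tlr8 was past it with upper quartile normalization (0.0289) and in the single fit (0.0428). The sources used here do not say whether same-numbered libraries share animals or a day, and the correlations of their deviations lay between -0.0955 and 0.0945 over 7927 genes, so the numbers were not taken as pairs. With the replicate block, 3 members were higher than in stroke blood, since Tlr1 had an adjusted p of 0.0519, and 2 were lower. With the longest transcript as its length, Tlr4 moved to 11.9 RPKM in sham blood, 8.55 in stroke blood and 10.8 in the brain, above Tlr6 in blood and Tlr1 in the brain. Counts near those of Tlr9 and of Tlr3 in blood limit the precision for these genes.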
